A study of Mus musculus with 6 samples.

Results

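Nobox, Figla, Sohlh1, Sohlh2, Lhx8, Taf4b and Tbpl2 encode transcription factors through which the oocyte builds its own gene program, and their RNA was followed in mouse ovaries that lack 1 working copy of Rnf111. The 7 genes were taken by symbol from a table of 35415 genes, and 7 of 7 were found. The groups were Rnf111+/- ovaries and wild-type ovaries, with 3 libraries each, named in the labels after separate mice. All mice were 3 months old and at estrus, the phase around ovulation, and whole ovaries were profiled by bulk RNA sequencing. CRISPR-Cas9 editing produced the heterozygous mice, in a study that links variants of RNF111 to premature ovarian insufficiency. The sources used here give neither the strain nor which edited line was sequenced. Rnf111 encodes Arkadia, a ubiquitin ligase that promotes signalling by the TGF-beta family.

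An oocyte is formed before birth, waits in a primordial follicle, and is then recruited to grow inside a follicle whose granulosa cells feed it. SOHLH1 and SOHLH2 are basic helix-loop-helix proteins of the oldest stages, germ cell cysts and primordial follicles, and both are lost as the oocyte grows. LHX8, a LIM homeodomain protein, and FIGLA, a basic helix-loop-helix protein needed to form primordial follicles, appear early and stay in growing oocytes. TAF4B is a subunit of the general factor TFIID that the early oocyte needs, and granulosa cells also make it. NOBOX is a homeodomain protein needed for the step from primordial to growing follicles and for the expression of Gdf9, Bmp15 and other oocyte genes. TBPL2, a relative of the TATA-binding protein, takes over the work of that protein in growing oocytes. On this basis Sohlh1, Sohlh2, Lhx8, Figla and Taf4b were treated as early-stage factors, and Nobox and Tbpl2 as growing-oocyte factors. The boundary is not sharp, since Lhx8, Figla and Nobox span both periods.

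Library totals ranged from 38261449 to 39474515 counts, and a detection floor of 3 counts stood for 0.0747 to 0.0784 CPM (read numbers adjusted for sequencing depth). Rnf111 itself held 1773, 1759 and 1712 counts in Rnf111+/- libraries and 2060, 2063 and 2130 in wild-type libraries. Its level was 0.828 of wild type (log2 fold change -0.27 ± 0.07 SE, adjusted p = 0.04 by edgeR's quasi-likelihood test), and leaving out single libraries ended that call in 5 of 6 fits. The tissue label was checked with marker lists: markers of granulosa, theca and luteal cells were detected throughout, at levels that differed between the genotypes and are given with Taf4b. 6 markers of spermatogenic cells, the other germ line, held 0 to 0.128 CPM in sum, and 4 of them had no count in any library. Wild-type replicate 3 stood apart. Its 6 markers of oviduct epithelium summed to 169 CPM, against 6.55 to 14.8 CPM in Rnf111+/- libraries and 6.47 and 10.6 CPM in the other wild-type libraries. Its 10 granulosa markers summed to 2800 CPM, against 5810 to 7780 CPM in Rnf111+/- libraries and 5170 and 5440 CPM in the other wild-type libraries. Counts without that library are therefore given beside the results that rest on it.

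Of the 7 factors, 6 had enough counts to be tested, and 5 of these had at least 10 counts in every library. Of the 5, Taf4b and Nobox rose in Rnf111+/- ovaries at an adjusted p under 0.05. None fell, and none of the 6 did so at an unadjusted p under 0.05 or with DESeq2 or limma-voom (0 in each). Among all 16841 tested genes, 3.9% rose and 5.74% fell by the same rule, and the median log2 fold change was -0.008. Tbpl2 had at least 10 counts only in Rnf111+/- libraries, so it entered the test through the genotype in which it was high. Its adjusted p also lay under 0.05, but it is described apart and not counted with the other 2. Without wild-type replicate 3, Taf4b and Nobox were called, against 7.37% of all genes that rose in that fit, and in each of the other 5 fits that left out a library only Taf4b was. In bulk ovary, a change in the number of oocytes and a change in the RNA of each oocyte cannot be told apart.

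Nobox was at 12.2, 10.3 and 8.96 CPM in Rnf111+/- libraries and at 6.24, 6.53 and 5.18 CPM in wild-type libraries. All 3 heterozygous libraries lay above all 3 wild-type libraries, which was so for 15.1% of tested genes. The means were 10.5 ± 1.65 CPM in Rnf111+/- and 5.98 ± 0.708 CPM in wild type (SD, n = 3 each), a 1.75-fold difference in means (log2 fold change 0.81 ± 0.18 SE, edgeR adjusted p = 0.026). With 694 counts summed over the wild-type libraries, Nobox had the second largest number of reads of the 7 factors, after Taf4b. Its call held without wild-type replicate 3 (adjusted p = 0.0191) and was lost when any of the other 5 libraries was left out, with an adjusted p of up to 0.0911. The log2 fold change stayed between 0.68 and 0.91 in all 14 other fits.

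Tbpl2 had 36, 28 and 21 counts in Rnf111+/- libraries and 9, 9 and 6 counts in wild-type libraries, or 0.72 ± 0.174 CPM in Rnf111+/- and 0.207 ± 0.0467 CPM in wild type (SD, n = 3 each). These groups did not overlap either. The level in Rnf111+/- ovaries was 3.48 times that in wild type, with a fitted log2 fold change of 1.78 ± 0.46 (SE). The summed counts of 85 in Rnf111+/- and 24 in wild type gave a ratio of 3.50 after scaling, with a counting interval at 95% of 2.2 to 5.75. The edgeR adjusted p was 0.046 with the filter that Tbpl2 had passed through Rnf111+/- libraries alone, and 0.0815 without a filter. It was also above 0.05 whichever library was left out (0.0826 to 0.144), with limma-voom (0.0544) and in a fit with a replicate block (0.0749). The log2 fold change lay between 1.60 and 1.95 in the fits other than that with all libraries.

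**Figure D1:**
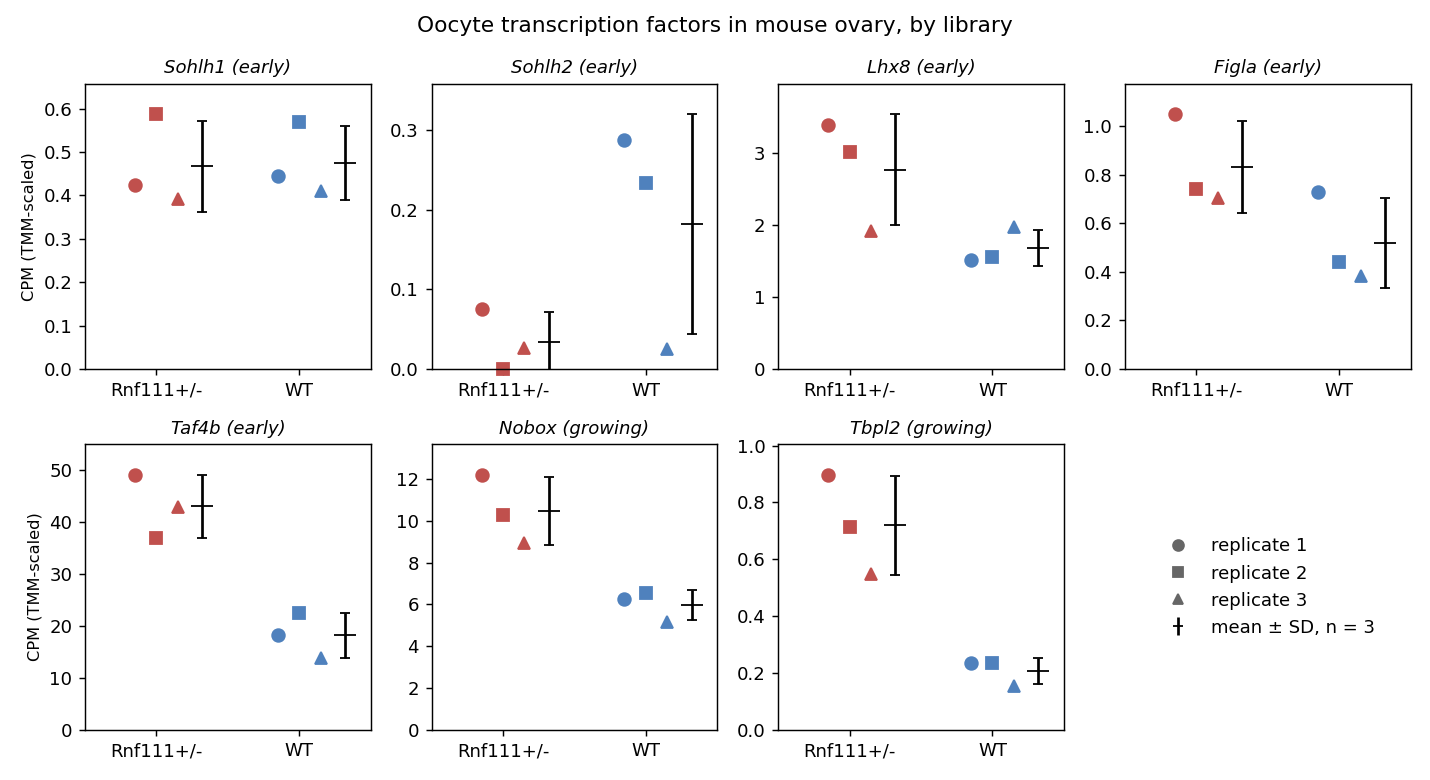
Level of each of the 7 factors in CPM (vertical axes, each starting at 0) in the 3 Rnf111+/- libraries (red) and the 3 wild-type libraries (blue), with the mean and SD beside them. Symbols mark the replicate number, which was not taken to pair the mice, and the SD bar of Sohlh2 in Rnf111+/- is cut at 0. The genotypes do not overlap for Taf4b, Nobox and Tbpl2, overlap in part for Lhx8 and Figla, and lie at the same level for Sohlh1, with means of 0.468 CPM in Rnf111+/- and 0.474 CPM in wild type.

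Taf4b was the most abundant of the 7 in every library. It was at 49, 36.9 and 42.9 CPM in Rnf111+/- libraries and at 18.2, 22.5 and 13.7 CPM in wild-type libraries, again without overlap. The means of 43 ± 6.06 CPM in Rnf111+/- and 18.2 ± 4.38 CPM in wild type (SD, n = 3 each) differed 2.37-fold (log2 fold change 1.24 ± 0.19 SE, edgeR adjusted p = 0.00748). Taf4b stayed called in all 14 other fits, with an adjusted p of at most 0.0374, and was higher by 1.09 on the log2 scale without wild-type replicate 3 (edgeR adjusted p = 0.000543). Because granulosa cells also make Taf4b, their markers are given beside it. Where 3.9% of all tested genes rose, 2 of 10 granulosa markers rose and none fell. They were Greb1, an estrogen-induced gene (log2 1.07, edgeR adjusted p = 0.00179), and Cyp19a1, the aromatase gene (2.35, adjusted p = 0.0188). At an unadjusted p under 0.05, with DESeq2 and with limma-voom, 4 rose and 0 fell. Inhba, an activin subunit gene (log2 1.79, edgeR adjusted p = 0.114), and Fshr, the receptor of follicle-stimulating hormone (1.08, adjusted p = 0.068), did not pass, and Foxl2 (-0.24) and Kitl (-0.15) lay below 0. The median log2 fold change of the 10 was 0.37, against -0.008 for all tested genes. Without wild-type replicate 3 it was 0.14, with 6 of 10 above 0. In that fit 3 of the 10 were called, against 7.37% of all genes that rose. They were Greb1, Inhba and Fshr, whereas Cyp19a1 was not called. Of the 6 fits that left out a library, Greb1 was called in 6 and Cyp19a1 in 2. The list ranged from 5810 to 7780 CPM in sum in Rnf111+/- libraries and from 2800 to 5440 CPM in wild-type libraries. These sums did not overlap, with or without that library. The nearest were Rnf111+/- replicate 3 and wild-type replicate 1, whose gap was smaller than that in Inhba alone (890 and 473 CPM). Singly, 4 of the 10 markers lay above wild type without overlap, as did 15.1% of all tested genes. Of the 10, 0 lay below and the others overlapped. The part of granulosa cells in the rise of Taf4b was not tested.

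Markers of theca and luteal cells, the hormone-making cells outside the granulosa layer and of the corpus luteum, differed between the genotypes as well. The 6 luteal markers summed to 6360, 5000 and 7660 CPM in Rnf111+/- libraries and to 1310, 1660 and 2700 CPM in wild-type libraries. These sums did not overlap, but the single markers were split. Akr1c18 and Sfrp4 made up most of the Rnf111+/- sums. Sfrp4 was at 2430, 1990 and 3430 CPM in Rnf111+/- libraries and at 178, 268 and 890 CPM in wild-type libraries. Of the 6, 3 lay above 0, while Lhcgr (log2 fold change -0.74), Prlr (-0.53) and Parm1 lay below 0. In edgeR, 1 of the 6 fell and none rose, where 5.74% of all tested genes fell and 3.9% rose. At an unadjusted p under 0.05, 2 rose and 2 fell. With DESeq2 and with limma-voom, 2 rose and 1 fell, and without wild-type replicate 3, 3 rose and 1 fell. Parm1 fell (log2 fold change -2.22, edgeR adjusted p = 0.000323). Akr1c18, which inactivates progesterone, was at 2650, 1980 and 2630 CPM in Rnf111+/- libraries and at 86.1, 66.7 and 676 CPM in wild-type libraries, but did not pass (log2 fold change 3.13 ± 1.06 SE, edgeR adjusted p = 0.153). The 6 theca markers summed to 8580 to 10600 CPM in Rnf111+/- libraries and to 11900 to 13000 CPM in wild-type libraries, also without overlap. Of the 6, 1 rose and 2 fell, against the same shares of all tested genes, and 3 lay above 0. Cyp11a1 and Hsd3b1 made up most of these sums, and Cyp11a1 did not pass (log2 fold change -0.34, edgeR adjusted p = 0.215). Cyp17a1, Insl3 (1.09, adjusted p = 0.134) and Ptch1 (0.27, adjusted p = 0.142) each lay above wild type without overlap. Cyp17a1, the androgen-making enzyme of theca cells, was at 174, 158 and 259 CPM in Rnf111+/- libraries and at 2.48, 4.48 and 1.48 CPM in wild-type libraries (log2 fold change 6.13 ± 0.45 SE, edgeR adjusted p = 0.00173). Both Star, a cholesterol transport gene of steroid-making cells, and the steroid enzyme gene Hsd3b1 fell (-0.84 and -0.53, adjusted p = 0.00467 and 0.0157). The part of these cell types in the values of the factors was not tested.

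Lhx8 had 3.39, 3.01 and 1.91 CPM in Rnf111+/- libraries and 1.51, 1.56 and 1.97 CPM in wild-type libraries. The groups overlapped, because Rnf111+/- replicate 3 lay within the wild-type range. Its log2 fold change was 0.72 ± 0.29 (SE), close in size to that of Nobox, but did not pass (edgeR adjusted p = 0.169). Figla had 42, 29 and 27 counts in Rnf111+/- libraries and 28, 17 and 15 counts in wild-type libraries. The groups overlapped through wild-type replicate 1, and the log2 fold change of 0.68 ± 0.43 (SE) did not pass (edgeR adjusted p = 0.368). An interval of 2 SE allowed anything from 0.886 to 2.89 times the wild-type level for Figla, and from 1.10 to 2.48 times for Lhx8. Neither was called in any other fit.

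Sohlh1 had the same total in both genotypes, with 17, 23 and 15 counts in Rnf111+/- libraries and 17, 22 and 16 counts in wild-type libraries. The ratio of the sums, scaled for depth, was 0.987, with a counting interval at 95% of 0.667 to 1.46. The fitted log2 fold change was -0.02 ± 0.43 (SE, edgeR adjusted p = 0.986), and its sign was above 0 in some other fits. An increase of the size seen for Nobox lay just inside the interval of 2 SE, which reached 1.78 times the wild-type level. Sohlh2 was too scarce to be tested, with 3, 0 and 1 counts in Rnf111+/- libraries and 11, 9 and 1 counts in wild-type libraries. Wild-type replicates 1 and 2 thus held nearly all of its reads, and the groups overlapped through wild-type replicate 3. The sums of 4 counts in Rnf111+/- and 21 in wild type gave a ratio of 0.188 with a counting interval of 0.0469 to 0.557, which covers counting error only and not the spread between mice. An exact two-sided permutation test of its log2 CPM over the 6 libraries gave p = 0.3, and with no filter on low counts edgeR gave an adjusted p = 0.397.

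**Figure D2:**
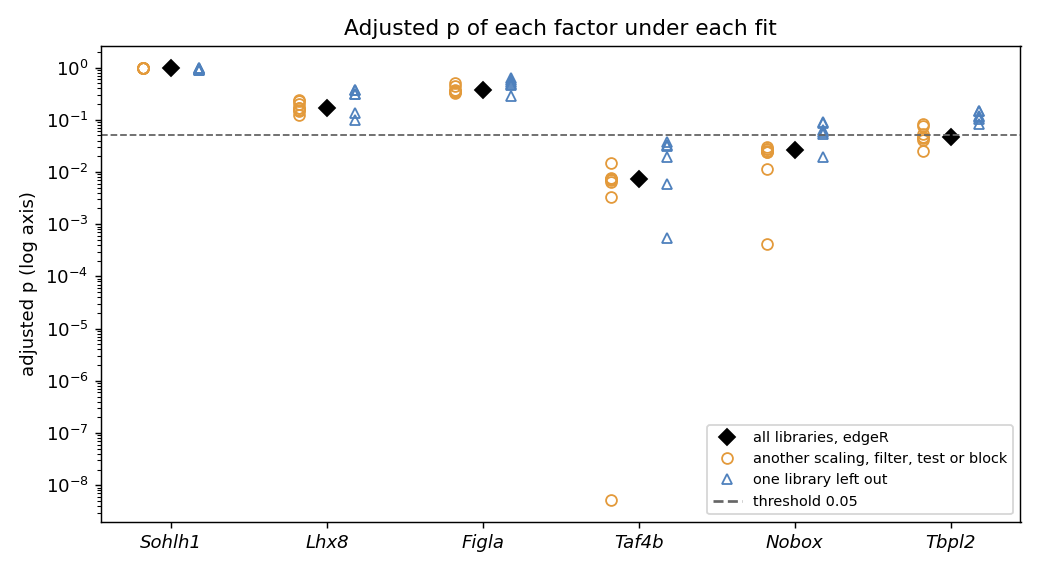
Adjusted p (vertical, log axis) of the 6 tested factors with all libraries in edgeR (diamonds), under another scaling, filter, test or block (circles) and with 1 library left out (triangles); the dashed line is the threshold of 0.05. Taf4b stays below the line in all fits, Nobox and Tbpl2 cross it, and Lhx8, Figla and Sohlh1 stay above it.

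The direct comparison of early-stage with growing-oocyte factors used the ratio of their levels within a library, so that the depth of the library cancels. The geometric mean of the 4 tested early-stage factors over that of both growing-oocyte factors was at -0.16, -0.03 and -0.01 on the log2 scale in Rnf111+/- libraries. In wild-type libraries it was at 0.44, 0.41 and 0.57. The groups did not overlap and their means differed by -0.54 on the log2 scale. The same contrast from the fitted values was a mean log2 fold change of 0.66 for the early-stage factors and of 1.30 for the growing-oocyte factors. No p is given for these class means, since the members were chosen with results known. The difference rested mainly on Tbpl2, which had passed the filter through Rnf111+/- libraries alone. Against Nobox alone, the ratio of the 4 early-stage factors was at -2.004, -1.91 and -1.97 in Rnf111+/- libraries and at -1.79, -1.85 and -1.77 in wild-type libraries, a difference of -0.16, and the fitted contrast was -0.15. With Figla counted as a growing-oocyte factor it was -0.44 on the fitted scale, against -0.64 as classed. With Taf4b left out it was -0.84, and with Sohlh1 and Taf4b against Tbpl2 alone it was -1.17. With a stricter filter, which left Lhx8 and Taf4b against Nobox, the sign turned to 0.17.

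Taken pair by pair, the 4 tested early-stage factors were set over Nobox first. In 1 of the 4 pairs, Sohlh1, all Rnf111+/- libraries lay below all wild-type libraries, in 1, Taf4b, they lay above, and in 2 they overlapped. Over Nobox, 74.4% of all tested genes lay below in the same way and 0.956% above, so a lower ratio was the usual case. Over Tbpl2, 3 of the 4 lay below and 1 overlapped, against 90% of all tested genes that lay below. Sohlh1 over Tbpl2 was at -0.998, -0.26 and -0.44 on the log2 scale in Rnf111+/- libraries and at 0.79, 1.13 and 1.17 in wild-type libraries, a difference in means of -1.59. Sohlh1 over Nobox differed by -0.82 (-4.35 ± 0.34 in Rnf111+/- and -3.53 ± 0.13 in wild type, SD, n = 3 each). Lhx8 and Figla differed from Nobox by little, at -0.12 and -0.14, with overlapping groups, whereas relative to Tbpl2 they were lower by 0.89 and 0.91 without overlap. Taf4b over Nobox was the pair that lay above, by 0.46. Each pair without overlap had an exact two-sided permutation p = 0.1, the smallest that 3 against 3 can give, and p = 0.143 after adjustment over the 10 pairs that include Sohlh2, so none could pass. Both Sohlh2 ratios lay below, depend on the prior count of 2 and rest on 0 to 11 counts a library.

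**Figure D3:**
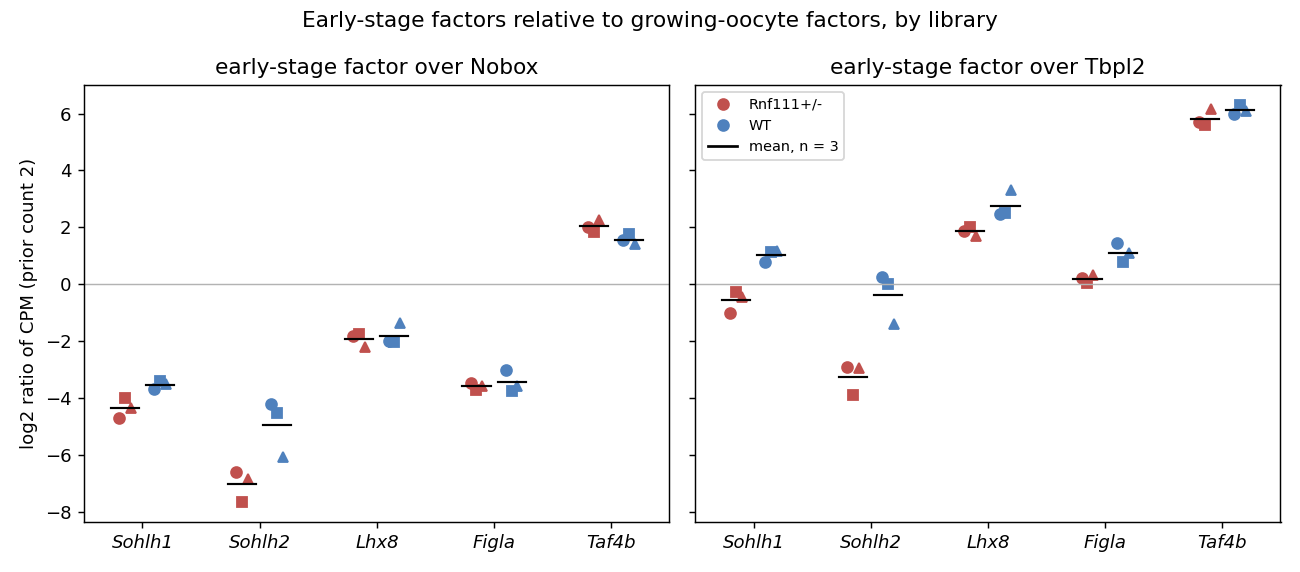
Log2 ratio of each early-stage factor to Nobox (left) and to Tbpl2 (right) in the 3 Rnf111+/- libraries (red) and the 3 wild-type libraries (blue), from CPM with a prior count of 2, with means as bars. Sohlh1 and Sohlh2 lie lower in Rnf111+/- in both panels, Lhx8 and Figla overlap relative to Nobox, and Taf4b lies higher relative to Nobox.

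The factors were next set against other RNA of the oocyte. Many of the oocyte markers used, such as Gdf9, Zp2 and Padi6, are described targets of NOBOX, FIGLA or the SOHLH proteins. They are therefore not a separate reference for these factors. The 20 oocyte markers held 23419, 19893 and 16468 counts in Rnf111+/- libraries and 13524, 12172 and 12491 counts in wild-type libraries, a 1.57-fold difference in means without overlap. Of the 20, 10 rose, against 3.9% of all tested genes, none fell, and 19 lay above 0 (median log2 fold change 0.62). Apart from the targets described further on, they included Npm2 and Dppa3, which act in the early embryo (log2 0.62 each, edgeR adjusted p = 0.0252 and 0.0253). The marker not above 0 was Ddx4, the germ cell RNA helicase gene, at 2.75 ± 0.451 CPM in Rnf111+/- and 2.77 ± 1.33 CPM in wild type (SD, n = 3 each). Its log2 fold change was -0.01 (edgeR adjusted p = 0.993). Its wild-type libraries were at 3.89, 3.11 and 1.30 CPM, lowest in replicate 3. Without wild-type replicate 3, 19 of the 20 markers again lay above 0, and the lowest log2 fold change among them was -0.34. Ddx4 was called in 0 of the 6 fits that left out a library. Counted per 1000 counts of these markers, Nobox was at 21, 20.2 and 20.8 in Rnf111+/- libraries and at 17.7, 20.7 and 16.3 in wild-type libraries, and the groups overlapped. Lhx8 averaged 5.39 in Rnf111+/- and 5.13 in wild type, and Figla 1.63 in Rnf111+/- and 1.56 in wild type, also with overlap. Tbpl2 was at 1.54, 1.41 and 1.28 in Rnf111+/- libraries and at 0.665, 0.739 and 0.48 in wild-type libraries, a ratio of means of 2.24. Tbpl2 had passed the filter through Rnf111+/- libraries alone, so its values here are a description only. Taf4b averaged 85.5 in Rnf111+/- and 55.4 in wild type, and its lowest Rnf111+/- library, at 72.7, was only just above the highest wild-type library, at 71.3. Sohlh1 was lower on this scale in all 3 Rnf111+/- libraries, at 0.726, 1.16 and 0.911, against 1.26, 1.81 and 1.28 in wild-type libraries. The marker counts were themselves 1.57 times as high in Rnf111+/-, so a gene of unchanged CPM falls on this scale. Sohlh1 was such a gene, at 0.468 CPM in Rnf111+/- and 0.474 CPM in wild type. The share of all tested genes that lay apart on this scale was not computed. The exact permutation p was 0.1 for Tbpl2, Taf4b and Sohlh1, again the smallest possible.

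**Figure D4:**
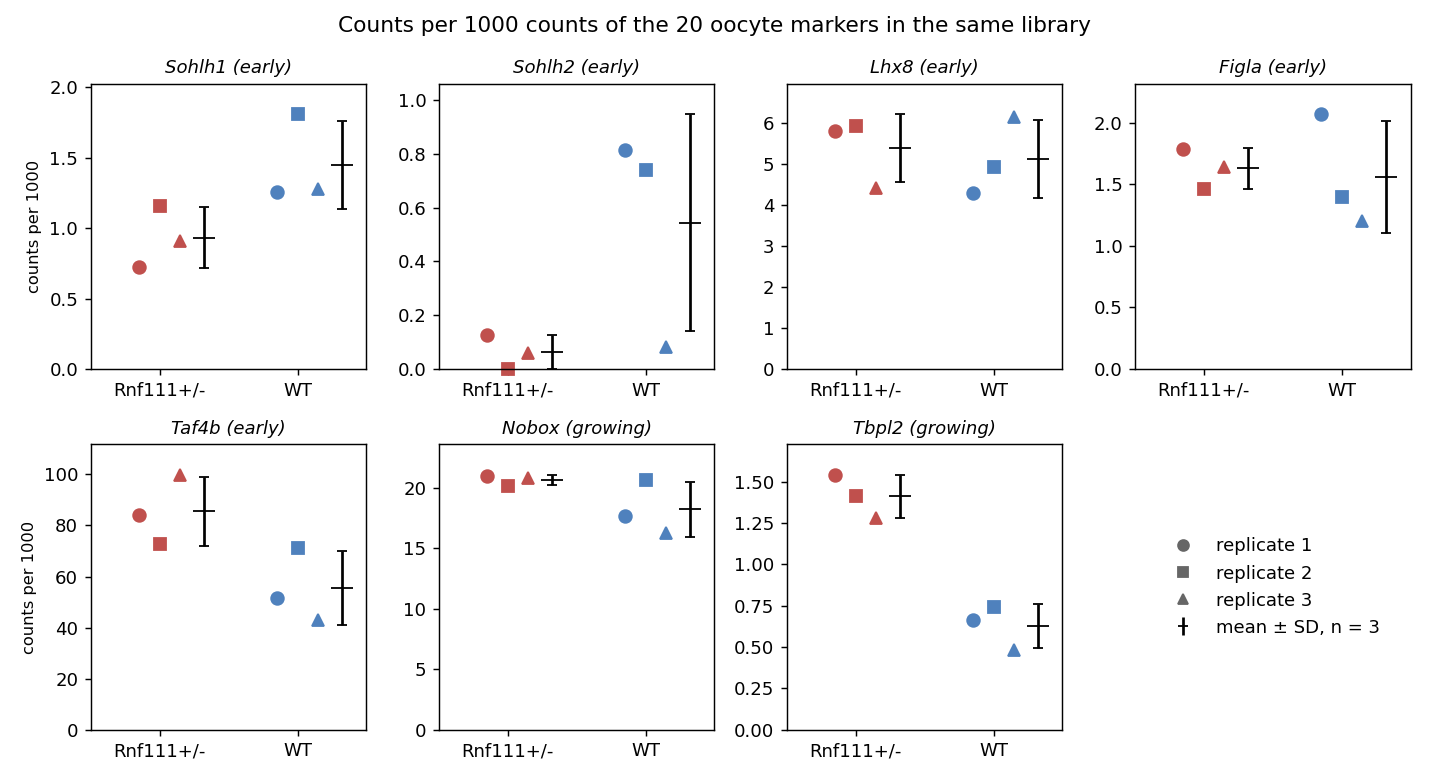
Counts of each factor per 1000 counts of the 20 oocyte markers in the same library (vertical axes, each starting at 0), for Rnf111+/- (red) and wild type (blue), with the mean and SD. On this scale Nobox, Lhx8 and Figla overlap between genotypes, Tbpl2 and Taf4b lie higher in Rnf111+/-, and Sohlh1 lies lower. The marker counts are higher in Rnf111+/-, so a gene of unchanged CPM also lies lower here.

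The libraries also differed within a genotype. Among Rnf111+/- libraries, replicate 1 had the highest level of Sohlh2, Lhx8, Figla, Taf4b, Nobox and Tbpl2, and it also held the most oocyte marker counts. Replicate 3 had the lowest level of Sohlh1, Lhx8, Figla, Nobox and Tbpl2 and the fewest marker counts. Among wild-type libraries, replicate 3 was lowest in the other 6 factors and highest in Lhx8.

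Levels of different genes were compared per length, as CPM per kilobase of exon annotated in GENCODE release M21. In Rnf111+/- ovaries the order was Taf4b (8.35 ± 1.18), Nobox (5.21 ± 0.818), Lhx8 (1.09 ± 0.304), Figla (0.994 ± 0.224), Tbpl2 (0.522 ± 0.126), Sohlh1 (0.363 ± 0.0815) and Sohlh2 (0.0142 ± 0.016; SD, n = 3 each). In wild-type ovaries the order was Taf4b (3.53 ± 0.85), Nobox (2.97 ± 0.352), Lhx8 (0.663 ± 0.0989), Figla (0.62 ± 0.223), Sohlh1 (0.368 ± 0.0659), Tbpl2 (0.15 ± 0.0338) and Sohlh2 (0.077 ± 0.0584). Lhx8 and Figla did not differ beyond their spread in either genotype, and neither did Taf4b and Nobox in wild type. Within each wild-type library, however, Taf4b lay above Nobox, at 3.53, 4.37 and 2.66 against 3.1, 3.25 and 2.57. The places of Sohlh1 and Tbpl2 were exchanged between the genotypes: Tbpl2 lay above Sohlh1 in each of the 3 Rnf111+/- libraries and below it in each of the 3 wild-type libraries. In Rnf111+/- the ranges of these genes overlapped (0.398 to 0.65 for Tbpl2 and 0.304 to 0.455 for Sohlh1). In wild type they did not (0.111 to 0.17 for Tbpl2 and 0.317 to 0.442 for Sohlh1). The orders were the same with the length of the longest transcript.

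Most genes described as targets of these factors rose in Rnf111+/- ovaries. Of 18 described targets of NOBOX, FIGLA or the SOHLH proteins, 12 rose, against 3.9% of all tested genes, and none fell. All 18 lay above 0, with log2 fold changes from 0.39 to 0.81 and a median of 0.65. At an unadjusted p under 0.05, 16 rose and 0 fell, with DESeq2 14 and 0, and with limma-voom 11 and 0. Zp1 and Zp2, egg coat genes that FIGLA activates, rose by 0.81 ± 0.14 and 0.74 ± 0.15 (SE; edgeR adjusted p = 0.0118 and 0.0226). Zp3, the third of them, was at 0.69 ± 0.18 and just missed the threshold (adjusted p = 0.0508). Among genes lost without NOBOX, Zar1, which acts in the early embryo, rose by 0.78, the growth factor genes Gdf9 and Bmp15 by 0.63 and 0.54, the secreted protein gene Oosp1 by 0.67 and the linker histone gene H1f8 by 0.55. Pou5f1 (0.53, edgeR adjusted p = 0.136) and Mos (0.67, adjusted p = 0.139) did not pass. Padi6 and Nlrp14, which act after fertilization, rose by 0.65 and 0.68, and Oas1d and Oas1e by 0.65 and 0.64. Kit, the receptor through which granulosa cells signal to the oocyte and a described target of SOHLH1, rose by 0.69 ± 0.15 (edgeR adjusted p = 0.0271) while Sohlh1 did not pass. Theca cells make Kit too.

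The count of 12 was the same without wild-type replicate 3. It was 8 without wild-type replicate 1 or Rnf111+/- replicate 3, 5 without Rnf111+/- replicate 1, 3 without wild-type replicate 2 and 2 without Rnf111+/- replicate 2. The count of 10 for the oocyte markers was likewise 10 without wild-type replicate 3, and otherwise 8, 7, 4, 3 and 2 in the same order. Among all tested genes, 657 rose with all libraries and 1273 without wild-type replicate 3. In the same order as above, 340, 224, 384, 316 and 233 rose in the other fits, so calls became fewer among all genes too. Gdf9 and Zar1 stayed called in all 6 of these fits. Many of the targets are themselves oocyte markers, so the lists are not separate evidence.

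**Figure D5:**
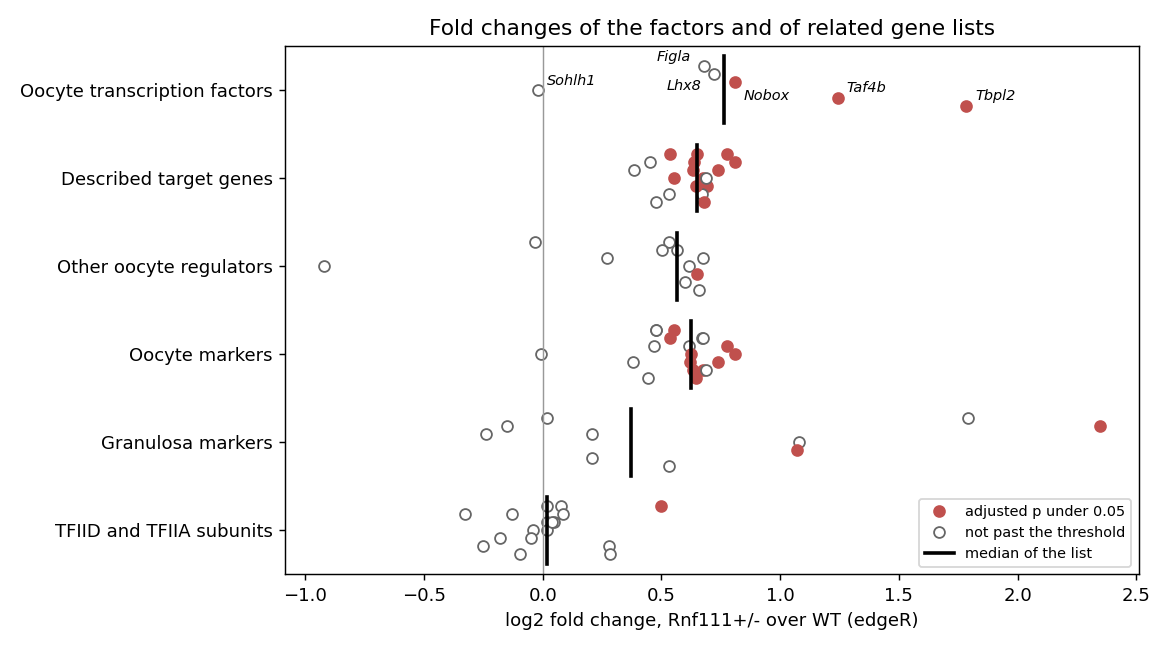
Log2 fold change of Rnf111+/- over wild type (horizontal axis) for each tested gene of 6 lists, filled where the edgeR adjusted p was under 0.05, with the median of each list as a bar. The targets and oocyte markers lie between 0.38 and 0.81 except Ddx4 at -0.01, Tbpl2 and Taf4b lie to the right of them, Sohlh1 lies at -0.02, and the TFIID and TFIIA subunits are centred at 0.02.

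Most other regulators of the oocyte lay above 0, but few passed. Of 14 genes, 11 were tested, 9 lay above 0, 1 rose, against 3.9% of all tested genes, and none fell (median log2 fold change 0.56). At an unadjusted p under 0.05, 4 rose and 0 fell, with DESeq2 3 and 0, and with limma-voom 1 and 0. Obox2, an oocyte homeobox gene, rose by 0.65 ± 0.15 (SE, edgeR adjusted p = 0.0303), and its relatives Obox1 (0.62, adjusted p = 0.0712) and Obox5 (0.60, adjusted p = 0.0703) did not pass. Obox genes are close copies, so the split of reads among them is uncertain, and the Obox2 call ended in 4 of 6 fits with a library left out. Foxo3, which keeps primordial follicles dormant and is made by many cell types, was at -0.03 (adjusted p = 0.805). Stra8, which starts meiosis in the fetal ovary, and Obox3 had no count in any library.

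The general machinery that TAF4B and TBPL2 belong to was tested as well. Of 17 subunits of TFIID and TFIIA, 1 rose and none fell, and the median log2 fold change was 0.02. Among all tested genes 3.9% rose, so 1 of 17 is near that share. At an unadjusted p under 0.05, 2 rose and 2 fell, and 0 fell with DESeq2 or limma-voom. The somatic counterparts of the factors did not pass, with Taf4 at 0.05 ± 0.11 (edgeR adjusted p = 0.821) and Tbp at 0.04 ± 0.09 (adjusted p = 0.809). The rise was that of Gtf2a1, which encodes the large TFIIA subunits that work with TBPL2. It was at 127.5 ± 6.53 CPM in Rnf111+/- and 90.2 ± 1.51 CPM in wild type (SD, n = 3 each; log2 fold change 0.50 ± 0.07 SE, edgeR adjusted p = 0.00385) and stayed called in all 6 fits that left out 1 library. Of 9 binding partners and relatives of the factors, 8 were tested, 1 fell and none rose, against 5.74% of all tested genes that fell. Ldb2, which encodes a cofactor of LIM homeodomain proteins that endothelial cells also make, fell to 11.1 ± 1.24 CPM in Rnf111+/-, against 25.9 ± 3.04 CPM in wild type (log2 fold change -1.22 ± 0.13 SE, edgeR adjusted p = 0.00144). Its relative Ldb1 (0.05, adjusted p = 0.796) and Tcf3, the dimer partner of FIGLA (-0.06, adjusted p = 0.74), did not pass.

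The genes whose level over the 6 libraries was most like the mean profile of the 6 tested factors were ranked by Pearson's r of log2 CPM among 14306 other genes that averaged 1 CPM or more. The first 10 were Cyp19a1, Sesn1, Rfpl4, Mvb12b, Ldlrad3, AU015836, Ptk7, Cndp2, Plekhh1 and Dnajb9, with r from 0.997 to 0.988. The genotypes form separate clusters of 3 libraries, so r reflects the difference between them above all, and it is given as a description without a test. Of these, Rfpl4, an oocyte gene, was at 10.7 ± 0.792 CPM in Rnf111+/- and 7.65 ± 0.487 CPM in wild type (log2 fold change 0.48, edgeR adjusted p = 0.0703). Among the factors themselves, Nobox and Tbpl2 had r = 0.995 with each other, while Sohlh1 had r between -0.14 and 0.09 with the other 5.

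The proximal promoters of Nobox, Tbpl2, Sohlh1 and Lhx8 are shown. Nobox was called, and Tbpl2 had passed the filter through Rnf111+/- libraries alone. Sohlh1 and Lhx8 did not pass, but the log2 fold change of Lhx8 (0.72) was close to that of Nobox (0.81). The windows reach from 250 bases before to 50 bases after the gene's start, and the sequences are from RefSeq on build GRCm38.p6, printed 5′ to 3′ on the gene's strand. Capitals mark the E-box CANNTG, the element that SOHLH1, SOHLH2 and FIGLA bind as basic helix-loop-helix proteins. It reads the same on both strands in this spelling. The Nobox window lies at chr6:43309505-43309804 on the minus strand, that of Tbpl2 at chr2:24096546-24096845 on the minus strand, that of Sohlh1 at chr2:25847199-25847498 on the minus strand and that of Lhx8 at chr3:154330511-154330810 on the minus strand.
Nobox: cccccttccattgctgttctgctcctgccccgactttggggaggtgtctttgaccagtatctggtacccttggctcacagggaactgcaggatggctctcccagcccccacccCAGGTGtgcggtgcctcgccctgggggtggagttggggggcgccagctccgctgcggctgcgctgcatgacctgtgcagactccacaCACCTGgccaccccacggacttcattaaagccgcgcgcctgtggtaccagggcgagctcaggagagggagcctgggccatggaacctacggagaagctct
Tbpl2: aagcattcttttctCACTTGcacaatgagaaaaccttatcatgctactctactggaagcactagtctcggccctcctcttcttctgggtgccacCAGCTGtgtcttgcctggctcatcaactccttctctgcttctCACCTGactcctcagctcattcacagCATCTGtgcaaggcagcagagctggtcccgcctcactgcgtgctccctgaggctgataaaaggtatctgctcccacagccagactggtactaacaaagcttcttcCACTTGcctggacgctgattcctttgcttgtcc
Sohlh1: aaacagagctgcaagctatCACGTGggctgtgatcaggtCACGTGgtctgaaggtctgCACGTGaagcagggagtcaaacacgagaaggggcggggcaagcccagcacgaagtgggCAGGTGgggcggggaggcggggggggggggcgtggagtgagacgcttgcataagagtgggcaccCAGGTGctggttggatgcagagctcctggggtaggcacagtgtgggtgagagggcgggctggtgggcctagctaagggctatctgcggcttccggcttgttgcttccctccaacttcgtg
Lhx8: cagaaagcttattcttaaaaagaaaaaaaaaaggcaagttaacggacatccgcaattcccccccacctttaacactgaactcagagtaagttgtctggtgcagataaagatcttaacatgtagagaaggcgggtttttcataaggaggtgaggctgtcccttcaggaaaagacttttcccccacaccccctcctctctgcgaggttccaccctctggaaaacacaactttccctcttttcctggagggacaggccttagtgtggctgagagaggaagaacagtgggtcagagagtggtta

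Windows for 6 of the 7 factors were at hand, and 5 of the 6 held at least 1 E-box, as did 72.3% of all 32851 promoter windows. The Nobox window held 2, the Figla window 4, the Sohlh2 window 1 and the Tbpl2 and Sohlh1 windows 5 each, a number reached by 2.1% of all windows. The Lhx8 window held none, like 27.7% of all windows. In Sohlh1, 3 of the 5 were the palindrome CACGTG, which starts at bases -231, -211 and -192, counted from -1 just before the gene's start. At least 3 copies of CACGTG were found in 0.0883% of all windows. None of the 6 windows held TAATTG or TAATTA, the elements described for NOBOX, or the TATA box TATAAA, on either strand (8%, 5.29% and 13.6% of all windows). A match is a stretch of letters and not a shown binding site, and any part of these elements in the levels of the factors was not tested.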

How the data were processed

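Per the labels' protocols, TRIzol was used to extract total RNA and the VAHTS Universal V6 kit for library construction. The authors deposited raw read counts per gene symbol, in 1 column a library. The submitters' processing notes name fastp (0.20.1), HISAT2 (2.1.0), HTSeq (0.11.2), DESeq2 (1.38.3) and build GRCm39. Roles of these tools, annotation and strand setting: not given in the sources used here. In GENCODE M21 (build GRCm38, used for exon lengths only) no member shared an exon with another gene.

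The counts were tested with edgeR (version 4.0.16, R 4.3.3): filterByExpr (minimum count 10, minimum total 15), scaling by the trimmed mean of M values (TMM), a robust two-sided quasi-likelihood test with genotype as the only term, and Benjamini-Hochberg adjustment over 16841 genes, with calls at 0.05. SE is the absolute log2 fold change over the square root of F. CPM are TMM-scaled, and log2 CPM used a prior count of 2. Counting intervals are exact binomial (Clopper-Pearson) at 95% and cover counting error only. The scripts were tested on simulated data. No 2 libraries were duplicates. Litters are not stated, so p-values measure the spread between these libraries.

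Alternatives were DESeq2 size factors, upper-quartile scaling, no filter, a stricter filter (at least 1 CPM in 3 libraries, and 50 counts summed), DESeq2 (1.42.0), limma-voom (limma 3.58.1), no robust step, a replicate block, single libraries left out and other classes of the factors. The members, lists and classes were chosen with earlier results of these data known. Named were all 7 members, Rnf111, of the lists of targets, regulators, partners and TFIID subunits the called genes and up to 4 others of smallest p, and the 10 genes most like the members. Npm2, Dppa3, the granulosa, theca and luteal genes, Ddx4, Foxo3, Taf4, Tbp, Tcf3, Ldb1, Stra8 and Obox3 were added after their values were seen.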

Additional observations from a re-analysis of the deposited data

How the results depend on the processing

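Taf4b was called in all 14 other fits, Nobox in 9 of 14 and Tbpl2 in 4 of 13, and Lhx8, Figla and Sohlh1 in none. The sign of Sohlh1 turned to 0.012 with upper-quartile scaling, 0.14 without wild-type replicate 2, 0.05 without Rnf111+/- replicate 1 and 0.09 without Rnf111+/- replicate 3, and it ranged from -0.21 to 0.14 with a library left out, with an adjusted p of at least 0.883. The number of factors called, Tbpl2 included, was 3, and 1 to 2 with a library left out. The number of changed genes was 530 to 2795 with a library left out and 2615 with DESeq2, against 1623. The difference between early-stage and growing-oocyte factors was -1.24 with no filter, which brings in Sohlh2, and 0.17 with a stricter filter, which removes Sohlh1, Figla and Tbpl2. With Tbpl2 left out, an alternative chosen after seeing the data, it was -0.15. It was -1.17 with Sohlh1 and Taf4b against Tbpl2, -0.84 with Taf4b left out and -0.44 with Figla counted as a growing-oocyte factor. Replicate numbers shared between the genotypes were not taken to pair the mice. Deviations of same-numbered libraries correlated at 0.01, 0.01 and 0.10, and the best match with another number was at 0.06, 0.06 and -0.07. With 3 libraries a genotype these values cannot decide whether same-numbered libraries share a batch. In the fit with a replicate block, 1626 genes and 2 factors were called, and Tbpl2 was lost (adjusted p = 0.0749). The counts of targets and markers under the other fits were added after the data were seen. No factor, target, oocyte marker, granulosa marker or other regulator fell with DESeq2, limma-voom or an unadjusted p under 0.05 in edgeR (0 each), and no partner or relative rose (0 each). Low counts limit Sohlh2, Tbpl2, Sohlh1 and Figla, with 21, 24, 55 and 60 counts summed over the wild-type libraries.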
